A study of Mus musculus with 4 samples.

Results

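Natural killer (NK) cells of mouse lung were selected from single-cell RNA-seq of whole lung on measured values. A cell was taken when at least 3 of the 6 NK genes Ncr1, Klrb1c, Klre1, Gzma, Klra8 and Klra4 had a UMI (a unique molecular identifier, which marks 1 captured RNA molecule), when the summed UMIs of the T cell genes Cd3d, Cd3e and Cd3g were at most 1, and when Cd79a (B cells), Cdh5 (endothelial cells) and Csf1r (macrophages and monocytes) had 0 UMIs. This rule took 342 of 9363 cells. The lungs came from 4 mice, each giving 1 library. The 2 mice labelled WT carried floxed Erg alleles (ERG fl/fl), and the 2 labelled ERG CKO carried the same alleles with CDH5-CreER(T), a tamoxifen-inducible Cre recombinase that the Cdh5 promoter drives in endothelial cells. Mice of both groups received 5 daily injections of 0.5 mg tamoxifen, and lungs were taken 90 days later, so the controls shared the floxed alleles and the drug but not the Cre. The mice were on a C57/BL6 background, and the ages of these 4 animals are not given in the sources used here. With 2 mice a group, 0.333 is the smallest p that exact permutation allows.

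NK cells are innate lymphocytes that kill infected or transformed cells without a rearranged antigen receptor. They weigh signals from activating receptors (Ncr1, Klrk1, the Klrb1 family) against inhibitory receptors that read MHC class I, which in mice include the Ly49 family encoded by the Klra genes and the Klrd1-Klrc1 heterodimer. Killing uses granules that hold perforin and granzymes, and NK cells also release chemokines and interferon gamma. Mouse NK cells are staged by surface CD27 and CD11b (encoded by Itgam): CD27 falls and CD11b, KLRG1 and the factor ZEB2 rise as cells mature. The lung holds a large pool of mature, circulating NK cells.

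The sequences shown are promoter windows of Ncr1, which encodes the activating receptor NKp46, and of 3 neighbouring Ly49 genes: Klra4 and Klra8, which the rule used, and Klra9, the most often detected of those it did not use. They are RefSeq sequences of GRCm38.p6, the same build as the mm10 of the deposited counts, from 250 bases before to 50 bases after 1 annotated start, the first listed for each gene. The Klra9 window lies inside the annotated gene (chr6:130178626-130194374), not at its outermost start. Ncr1 lies at chr7:4337465-4337764 on the plus strand, and Klra4 (chr6:130067222-130067521), Klra8 (chr6:130129849-130130148) and Klra9 (chr6:130193063-130193362) on the minus strand. Capitals mark the letters of 2 motifs searched on both strands, TGTGGT (bound by RUNX factors) and GTGTGA (bound by T-box factors such as EOMES and TBX21).
Ncr1: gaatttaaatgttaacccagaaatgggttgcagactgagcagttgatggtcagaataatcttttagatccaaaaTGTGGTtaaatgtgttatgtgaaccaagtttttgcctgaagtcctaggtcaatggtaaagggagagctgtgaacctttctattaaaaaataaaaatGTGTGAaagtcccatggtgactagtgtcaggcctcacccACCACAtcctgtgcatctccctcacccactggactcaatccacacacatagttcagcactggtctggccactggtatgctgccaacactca
Klra4: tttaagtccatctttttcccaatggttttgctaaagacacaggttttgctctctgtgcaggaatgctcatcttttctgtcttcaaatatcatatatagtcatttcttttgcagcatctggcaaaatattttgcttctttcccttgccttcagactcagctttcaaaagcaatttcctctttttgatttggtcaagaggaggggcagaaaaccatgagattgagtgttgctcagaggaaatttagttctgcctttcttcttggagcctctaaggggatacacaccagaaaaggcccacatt
Klra8: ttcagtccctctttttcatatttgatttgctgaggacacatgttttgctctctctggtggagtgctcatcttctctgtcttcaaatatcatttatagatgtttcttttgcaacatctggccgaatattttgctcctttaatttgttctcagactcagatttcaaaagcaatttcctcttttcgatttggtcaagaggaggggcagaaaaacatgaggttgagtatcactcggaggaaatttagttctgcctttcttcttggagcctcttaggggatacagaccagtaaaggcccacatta
Klra9: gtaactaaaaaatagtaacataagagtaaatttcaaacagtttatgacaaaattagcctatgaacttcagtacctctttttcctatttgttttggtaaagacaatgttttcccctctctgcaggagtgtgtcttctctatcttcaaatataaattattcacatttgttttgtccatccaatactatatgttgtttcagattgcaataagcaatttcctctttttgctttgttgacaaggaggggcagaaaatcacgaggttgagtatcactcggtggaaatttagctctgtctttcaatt
The Ncr1 window held TGTGGT at 2 places and GTGTGA at 1, and the 3 Ly49 windows held neither. Among the 6 NK genes of the rule, 4 windows held TGTGGT and 2 held GTGTGA, whereas among the 10 Ly49 genes 1 window held each. Of 27025 mouse promoter windows, 16.9% held TGTGGT and 14.4% held GTGTGA. The Klra4 and Klra8 windows were 86.3% identical, and the Klra9 window was 62.7% and 64.7% identical to them. Identity was taken over whole windows, and the Klra9 window is offset from the other Ly49 windows, which lowers its values. All 10 Ly49 genes lie in 1 cluster at chr6:129898988-131247716.

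Total depth was 11263911 to 18646776 UMIs per library. The WT pair held 108 (replicate 1) and 54 (replicate 2) NK cells and the ERG CKO pair 70 and 110, with 547967, 281574, 308407 and 500160 UMIs and a median of 4617, 4661, 4338 and 4358 UMIs per cell. All values for 4 libraries below are in this order. Erg had 0 UMIs in NK cells of every library, which allows a level of up to 1.83 CPM (UMIs of a gene in the summed NK cells, scaled to a common total) and a share of up to 0.877% of the 342 cells with a UMI. In endothelial cells Erg was at 90.8, 83.2, 105.5 and 82.4 CPM, so its counts did not set the groups apart. The position of the floxed exons relative to the counted tags is not given in the sources used here, so this checks nothing about the deletion, and the groups below are those of the labels. Xist had 352, 0, 311 and 0 UMIs in NK cells and the Y-linked Ddx3y 0, 24, 0 and 62, so each group held 1 library with Xist and 1 with Ddx3y. In total 7 cell barcodes occurred in more than 1 library, 2 of them in NK cells.

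The label NK cell held against genes that the rule did not use. Nkg7, a granule membrane protein, was detected in 99.7% of the 342 cells, the receptor chain Klrd1 in 95.03%, the activating receptor Klrk1 in 94.7%, the adaptors Tyrobp and Fcer1g in 97.95% and 99.4%, and the NK cell transcription factor Eomes in 52.3%. In B cells, which should lack these genes and had a like depth (median 4548 UMIs against 4470), the shares were 0.690%, 0.414%, 0.276%, 13.4%, 4.41% and 0%. Several T cell genes were low: the T cell receptor gene Trac had a UMI in 4.39% of NK cells, Cd8a in 0.292%, and Cd4, Cd5 and Cd8b1 in none, of 9 T cell genes listed. The myeloid gene Lyz2 and the epithelial genes Scgb1a1 and Sftpc had a UMI in 23.4%, 25.7% and 15.8% of NK cells, and in 20.6%, 23.2% and 13.7% of B cells. The constant genes Trbc1 and Trbc2 were detected in 70.8% and 39.5% of NK cells, at means of 439 and 227 CPM against 835 and 1364 CPM in CD8 T cells.

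The rule's limits were crossed by few cells. In all, 17 cells had exactly 3 NK genes and 325 had 4 or more. Eomes was at 162 CPM and Prf1 at 192 CPM in the 17 cells, against 220 and 411 CPM in the 325. Just outside were 11 cells with 2 NK genes (median 1275 UMIs), with Nkg7 at 993 CPM and Eomes at 0. Of the 342 cells, 11 held 1 CD3 UMI, and none of these had a Trac UMI. A further 28 cells had at least 3 NK genes but 2 or more CD3 UMIs, and 82.1% of those held Trac. These cells were left out.

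Effector genes were abundant in every library. The chemokine Ccl5 was at 22465, 21355, 25411 and 20278 CPM and the rule gene Gzma, a granzyme, at 13802, 14923, 15709.8 and 12468 CPM. Ccl5 was also high in CD8 T cells (5522 CPM on average), whereas Gzma was at 535 CPM there. Among granule genes, Nkg7 was at 3529, 4258, 4053 and 4179 CPM, the granzyme Gzmb at 1657, 1904, 2065 and 1354 CPM and Prf1, which encodes perforin, at 398, 398, 447 and 382 CPM. CD8 T cells held 802, 130.5 and 16.04 CPM of the 3. The signalling adaptors Tyrobp (2736, 2997, 2964 and 2895 CPM) and Fcer1g (2431, 2568, 2662 and 2837 CPM), which carry the tyrosine motifs of activating receptors, were at 10.9 and 14.2 CPM in CD8 T cells.

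Both classes of receptor were detected. The inhibitory receptor chains Klrd1 and Klrc1 were at 1159, 1232, 1177 and 1218 and 245, 316, 259 and 436 CPM, and Klrg1, which rises with maturation, at 263, 252, 337 and 202 CPM. Of the activating receptors, Klrk1 (NKG2D) was at 739, 948, 921 and 1002 CPM and Klrc2 at 555, 614, 558 and 639.8 CPM. The checkpoint genes Pdcd1 and Havcr2 were at or near 0, with a UMI in 0.292% and 0% of NK cells. Among transcription factors, Irf8 stood at 2201, 2227, 2140.0 and 1705 CPM, Id2 at 878, 1129, 1060.3 and 918, Ets1 at 588, 565, 636 and 614, Eomes at 226, 238, 208 and 204 and Tbx21 at 128, 178, 182 and 186 CPM. Irf8 averaged 7.82 CPM in CD8 T cells and 204 CPM in B cells. Of cytokine receptors, Ifngr1 was at 1319, 1442, 1693 and 1428 CPM and Il2rb, which takes up interleukin 2 and 15 signals, at 363, 433, 353 and 402 CPM. The cells were chosen by genes of the same program, so these levels are a description with no test, and they compare 1 gene between classes, not genes with each other.

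NK cells were a variable share of the libraries, and the groups overlapped. The share was 4.77%, 2.51%, 2.26% and 5.94% of all cells (95% Wilson intervals, for counting error only, 3.97 to 5.73, 1.93 to 3.26, 1.79 to 2.85 and 4.95 to 7.11%). The mean was 3.64% ± 1.60 (SD, n = 2) in WT and 4.10% ± 2.60 (SD, n = 2) in the libraries labelled ERG CKO, a difference of 0.459 percentage points (two-sided exact permutation p = 1). Replicate 1 was the higher of the WT pair and replicate 2 of the ERG CKO pair, so leaving out 1 library moved the difference between −1.38 and 2.30 points and turned its sign. Among cells with a UMI of the leukocyte gene Ptprc the share was 9.33%, 5.10%, 4.75% and 11.0%. T cells were 18.5%, 15.9%, 14.9% and 14.4% of cells, so that NK cells numbered 0.258, 0.158, 0.152 and 0.414 per T cell. A share of captured cells cannot tell a change of NK cells from a change of the other cells, or from cells lost in dissociation.

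**Figure D1:**
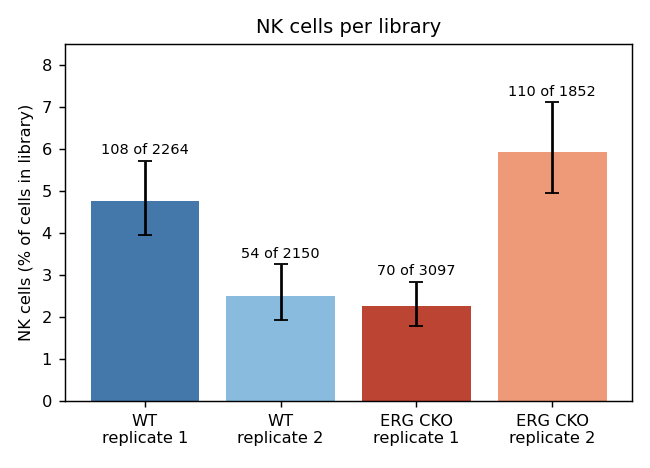
NK cells as a percentage of all cells in each library (bars, with 95% Wilson intervals for counting error; NK and total cell numbers above). ERG CKO replicate 2 was highest at 5.94% and ERG CKO replicate 1 lowest at 2.26%, and the groups overlapped.

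Ly49 receptors were expressed by subsets of NK cells. Of the members that the rule did not use, Klra9 had a UMI in 64.8, 59.3, 65.7 and 75.5% of NK cells, Klra7 in 55.6, 51.9, 57.1 and 55.5%, Klra3 in 39.8, 48.1, 30.0 and 34.5% and Klra1 in 17.6, 9.26, 27.1 and 8.18%. In B cells a UMI of the 4 was found in 0.276, 0.276, 0.276 and 0.276% of cells. Klra6, Klra5 and Klra10 were rare, in 5.56%, 2.05% and 2.05% of NK cells, and Klra2, a Ly49 gene of myeloid cells, had 0 UMIs in NK cells but 137 CPM in Csf1r myeloid cells. Klra9 and Klra3 were 98.2% identical over the last 500 bases of their transcripts, where 3' reads would fall, so their split is uncertain. Reads that could not be assigned to 1 gene may be missing from both.

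Most cells held 1 or 2 of these 4 receptors. None was detected in 16 cells, 1 in 111, 2 in 161, 3 in 49 and all 4 in 5, a mean of 1.75 per cell. Per library the mean was 1.78, 1.69, 1.80 and 1.74 (two-sided exact permutation p = 0.667 between groups), close together in all 4. The 10 pairs among these 4 genes and Klrc1, a separate inhibitory receptor, were compared with the product of the shares of their 2 genes. For Klra1 and Klra3 the number of cells with both was 0.565 times that product: of 52 cells with Klra1, 11 (21.2%) also held Klra3, against 128 of 342 (37.4%) in all NK cells. The other 9 pairs lay between 0.800 and 1.11 times it. These counts are descriptive, since a missing UMI does not show a missing receptor.

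**Figure D2:**
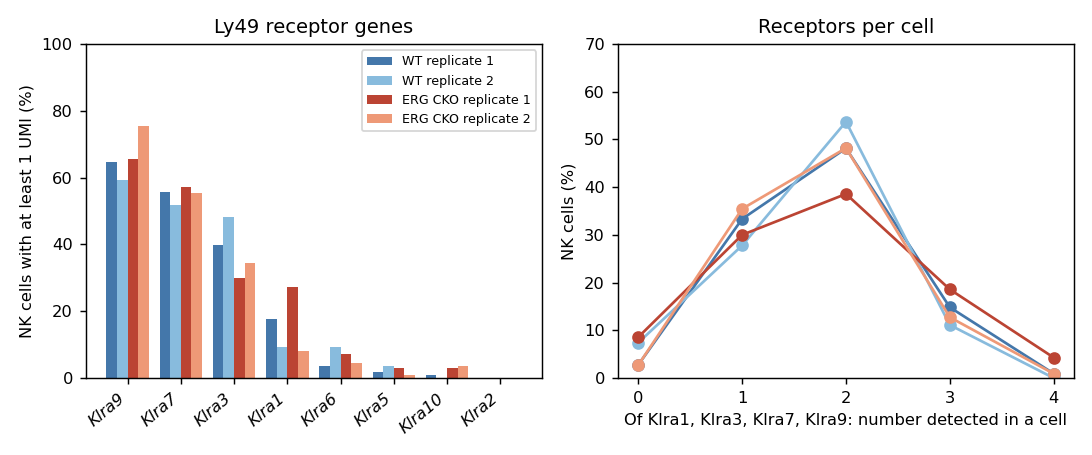
Left, share of NK cells with at least 1 UMI of 8 Ly49 genes that the selection rule did not use, by library; right, share of NK cells by how many of Klra1, Klra3, Klra7 and Klra9 were detected. Klra9 led in every library, and cells with 2 receptors were the most common class in each.

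To ask whether loss of endothelial ERG goes with a change in NK cells, summed counts of the 342 cells were compared between groups by edgeR's quasi-likelihood test. No gene was called: 0 of 5012 genes tested (0.0%) had an adjusted p of at most 0.05 (Benjamini-Hochberg), with 249 (4.97%) at an unadjusted p under 0.05, of which 129 (2.57%) had the higher and 120 (2.39%) the lower level under the ERG CKO label. DESeq2 called 0 as well, with 36 at an unadjusted p under 0.05. The number rested on the model: 18 genes were called with no filter on low counts, 13 when the replicate number was in the model, which here also sets libraries with Xist beside each other, and 5 when cells over 10% mitochondrial UMIs were left out (the mitochondrial limit) and 13 to 22 when 1 library was left out. With 1 library left out, the groups no longer held libraries with Xist and with Ddx3y in equal number. Xist then had a log2 fold change of 10.4 without WT replicate 1 and −10.3 without ERG CKO replicate 1, and Ddx3y of 8.01 without WT replicate 2, so the counts with 1 library left out include such genes. The genes with the lowest p are therefore given as values.

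Highest on the ERG CKO side by p was Il7r, the interleukin 7 receptor chain. It had 2, 1, 28 and 19 UMIs, in 2, 1, 4 and 4 cells, or 3 UMIs in WT against 47 (log2 fold change 3.93, SE 0.68, adjusted p = 0.0564). The ratio of the 2 sums per UMI was 16.1, with a 95% interval for counting error of 5.17 to 80.7. These UMIs lay in 11 cells, of which 1 held 15, and 6 of the 11 cells had exactly 3 NK genes, against 11 of the other 331. Over the alternative settings its adjusted p ran from 3.52e-08 with the replicate block to 0.9999 with DESeq2. It was at most 0.05 with no filter, the mitochondrial limit or without any 1 of WT replicate 1, WT replicate 2 and ERG CKO replicate 2, but 0.231 without ERG CKO replicate 1, 0.584 with at least 4 NK genes and 0.318 with no CD3 UMI. With each gene's highest cell in each library left out, Il7r did not pass the filter on low counts. Next were Klf2, which controls lymphocyte trafficking, at 579, 728, 1106 and 1106 CPM (log2 fold change 0.76, SE 0.15, adjusted p = 0.104), and Ly6c2, a surface antigen, at 453, 710.3, 911 and 1292 CPM (log2 fold change 0.95, SE 0.19, adjusted p = 0.104). Both ERG CKO libraries lay above both WT libraries for each. Genes taken for a low p tend to separate in this way, and the share of all genes that do so was not counted. Klf2 and Ly6c2 were called with no filter (adjusted p = 0.00059 and 1.28e-06), the replicate block (0.000116 and 5.60e-07) and the mitochondrial limit (0.0437 for both). With 1 library left out Klf2 was at 0.000165 to 0.198 and Ly6c2 at 8.16e-09 to 0.14, the highest for Klf2 without WT replicate 1 and for Ly6c2 without ERG CKO replicate 2, and DESeq2 gave 0.9999 for both. Khdc1a (58.4, 42.6, 126 and 102 CPM) and the hypoxia-induced lipid droplet gene Hilpda (31.02, 28.4, 51.9 and 102 CPM) came after them, with adjusted p of 0.518 and 0.616. Khdc1a was called with the replicate block (0.0221) and Hilpda without ERG CKO replicate 1 (0.004), and neither under any other setting tried.

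On the WT side, Slc25a4, which exchanges ADP and ATP across the mitochondrial membrane, had 62.05, 99.4, 16.2 and 17.99 CPM (log2 fold change −2.14, SE 0.42, adjusted p = 0.104). Its UMIs numbered 34, 28, 5 and 9. It was called with no filter (adjusted p = 0.000441), the replicate block (4.36e-05), the mitochondrial limit (0.0437) and with 1 library left out (0.00398 to 0.0355), except without WT replicate 2 (0.0752), and DESeq2 gave 0.9999. The chromatin protein gene Hmgn2 was at 108, 131, 58.4 and 45.99 CPM (adjusted p = 0.258) and the long noncoding Gm26917 at 245, 273, 133 and 142 CPM (adjusted p = 0.128). The groups did not overlap for these 3, which were also taken for a low p, and the share of all genes without overlap was not counted. Hmgn2 and Gm26917 were also called with no filter (0.0317 and 0.02), the replicate block (0.0129 and 0.00704) and without WT replicate 1 (0.0498 and 0.0317), and Hmgn2 without ERG CKO replicate 1 (0.0384), against 0.9999 for both with DESeq2. Scgb1a1, the club cell secretoglobin, was at 139, 81.7, 64.8 and 9.997 CPM (adjusted p = 0.381, and 5.00e-09 without ERG CKO replicate 1 to 0.9999 with DESeq2). Its values were also highest in WT replicate 1 and lowest in ERG CKO replicate 2 in T cells (96.4, 56.7, 60.7 and 24.2 CPM) and in B cells (153, 86.8, 57.5 and 13.9 CPM), which do not make it. The part of free RNA in the Scgb1a1 value was not tested.

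Of the gene groups listed, none had a called gene. All 8 mature NK genes tested were higher in the libraries labelled ERG CKO (median log2 fold change 0.48, against 0.01 over all genes), 3 of them at an unadjusted p under 0.05: Zeb2 (189.8, 209.5, 292 and 326 CPM), the chymase Cma1 (407, 426, 684 and 538 CPM) and Itgam (175, 213, 263 and 249.9 CPM). Of 9 immature NK genes, 8 were higher as well (median 0.60), 4 at an unadjusted p under 0.05 (Il7r, Tcf7, Ltb and Ctla2a), so by number of genes both stages of the CD27 and CD11b sequence lay on the same side. The summed level of the immature list was 608, 1105, 1054 and 1332 CPM, which overlapped between groups. In the 11 cells with an Il7r UMI, Ltb was at 424 CPM against 20.4 CPM in the other NK cells, and Tcf7 at 75.8 against 30.5 CPM. Among 9 interferon-stimulated genes 8 were higher (median 0.48), 2 at an unadjusted p under 0.05 (Ly6c2 and Isg15), and among 13 MHC class I genes 12 (median 0.16), 3 at that p. Granule genes lay close to 0: of 15 granule genes 11 were higher and 4 lower (median 0.08), with none at an unadjusted p under 0.05.

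Adaptors and factors were spread on both sides, and more receptor genes were higher than lower. Of 11 activating receptor genes 8 were higher and 3 lower (median log2 fold change 0.17), with 1 at an unadjusted p under 0.05, a lower one. Of 6 inhibitory receptor genes 4 were higher and 2 lower (median 0.19), with 1 at that p, a higher one. Of 21 adaptor genes 11 were higher and 10 lower (median 0.03), and of 23 transcription factors 9 and 14 (median −0.01). Among 10 cytokine and chemokine genes 5 were higher and 5 lower, and Ccl3 and Ccl4, macrophage-attracting chemokines, were at 493, 735, 486 and 258 and 1389, 2109.6, 1018 and 1379.6 CPM (log2 fold changes −0.74 and −0.54, adjusted p = 0.723 and 0.649). Both were called lower with no filter (adjusted p = 0.0128 each), the replicate block (0.00642 and 0.00704) and without WT replicate 1 (0.000629 and 7.43e-05). Ccl3 was called without ERG CKO replicate 1 (5.24e-05) and Ccl4 without ERG CKO replicate 2 (0.00743), and neither under the other settings, DESeq2 among them. Of 5 Ly49 genes 4 were higher, and Klra1 had a log2 fold change of 0.93 (adjusted p = 0.649, but 0.0067 with the replicate block and 8.29e-05 without ERG CKO replicate 2). Of 7 cell cycle genes 2 were higher, and 2, 1, 0 and 1 cells held at least 2 of 9 mitotic genes.

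**Figure D3:**
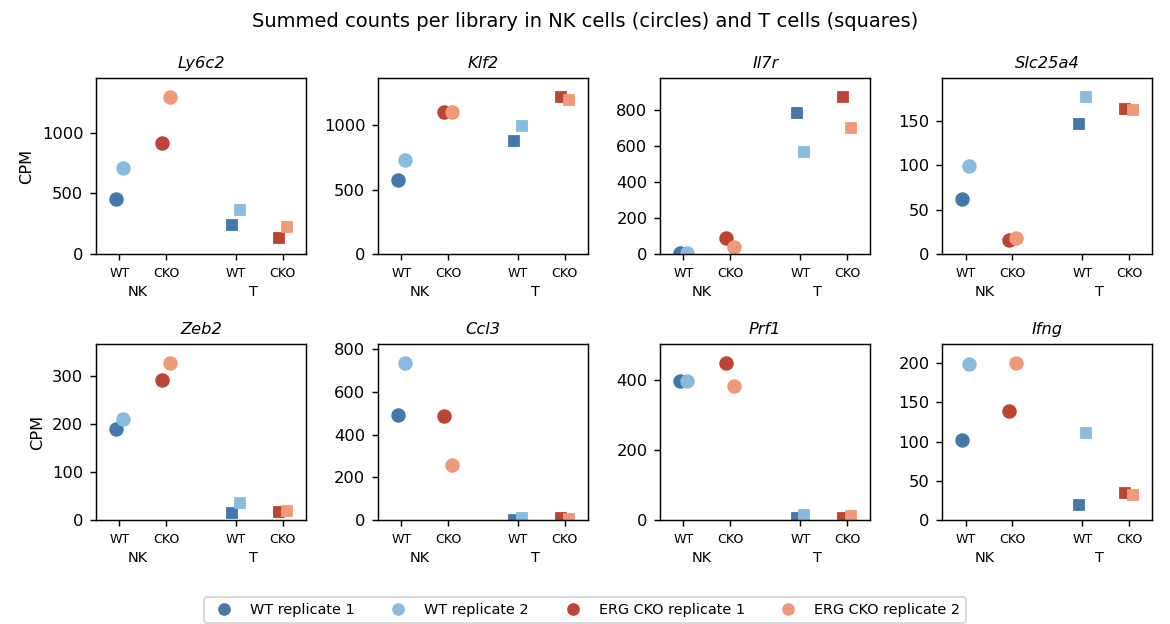
Level (CPM of summed counts) of 8 genes per library in NK cells (circles) and T cells (squares). In NK cells both ERG CKO libraries lay above both WT libraries for Ly6c2, Klf2, Il7r and Zeb2 and below them for Slc25a4 and Ccl3. The groups overlapped for Prf1 and Ifng, and the share of all genes without overlap was not counted. With all NK cells and all libraries, the filter on low counts and no replicate block, no gene had an adjusted p of at most 0.05 in NK cells alone.

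Whether the difference between groups was particular to NK cells was tested against T cells of the same libraries (1487 cells with at least 2 CD3 UMIs and fewer than 3 NK genes) as an interaction in 1 edgeR model. Of 8229 genes, 3 were called (0.0365%). Ly6c2 was at 239, 364, 135 and 222 CPM in T cells, where the libraries labelled ERG CKO were lower, and the NK difference exceeded the T difference by 1.65 on the log2 scale (SE 0.15, adjusted p = 3.97e-07). For Il7r, at 782, 564, 869.6 and 697 CPM in T cells, the interaction was 3.82 (SE 0.57, adjusted p = 0.00212). For Slc25a4, at 146, 176, 163 and 163 CPM in T cells, it was −2.22 (SE 0.40, adjusted p = 0.0211). Klf2 had higher values under the ERG CKO label in both classes (877, 993, 1219 and 1201 CPM in T cells), and its interaction was 0.35 (adjusted p = 0.799). The next genes did not pass. Cd74 had an interaction of 3.23 (adjusted p = 0.0562), and those of Hbb-bs, Cxcl10, Rasl11b and Actg1 had adjusted p of 0.111, 0.16, 0.209 and 0.229. For Cd83 and Ifitm1 all NK UMIs, 41 in 3 cells and 63 in 1 cell, lay in WT replicate 1. Ly6c2 stayed called with any 1 library left out and against CD8 T cells alone, with adjusted p of at most 0.00396. Il7r was not called without ERG CKO replicate 1 (adjusted p = 0.384), and Slc25a4 not without ERG CKO replicate 1 or 2 (0.968 and 0.897) or against CD8 T cells alone (0.0665). The number called was 35 and 19 without WT replicates 1 and 2, and 1 and 2 without ERG CKO replicates 1 and 2.

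NK cells were then divided by Cd27, the receptor that marks less mature cells. A Cd27 UMI was found in 12, 14, 10 and 26 cells, or 11.1%, 25.9%, 14.3% and 23.6%, which overlapped between groups (exact permutation p = 1). Cells with Cd27 had more UMIs (median 5200, 5292, 6047 and 5088 against 4490, 4515, 4132 and 4171), and after thinning each cell to 1000 UMIs the shares were 2.78%, 9.26%, 4.29% and 11.2%. Within libraries, edgeR with the library in the model called 80 of 2472 genes (3.24%), 54 higher (2.18%) and 26 lower (1.05%) in cells with Cd27. Cd27 itself was left out of the count, and Gzma, which the rule used, is in it. With each cell thinned, 16 of 447 genes tested were called (3.58%), and when Cd27 was read from thinned counts, which leaves fewer cells with it, 9 of 2450 (0.367%), all 9 among the 80.

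Cells with Cd27 held more Emb, Xcl1 and Ctla2a, the 3 genes of the immature NK list that could be tested, and all 3 were called. The adhesion partner Emb was at 354, 229.6, 161 and 451 CPM in them and 47.8, 41.1, 95.01 and 36.1 CPM in the others (log2 fold change 2.64, SE 0.29, adjusted p = 6.20e-07). The chemokine Xcl1 was at 388, 436, 645 and 437 against 67.3, 257, 95.01 and 194 CPM (log2 fold change 1.70, SE 0.24, adjusted p = 3.53e-05), and Ctla2a at 491, 781, 1039.6 and 952 against 202, 278, 368 and 380.0 CPM (log2 fold change 1.42, SE 0.15, adjusted p = 2.39e-07). All 3 were higher in each of the 4 libraries, and with Cd27 read from thinned counts Emb and Xcl1 were called and Ctla2a was not (log2 fold change 0.76, adjusted p = 0.87). Cd7 (log2 fold change 1.51), the chemokine receptor Ccr2 (1.33), Nrgn (2.35) and the cytokine feedback gene Socs3 (1.75) were also called higher. With Cd27 read from thinned counts Ccr2 was called (1.61, adjusted p = 0.00366), whereas Cd7 was at 0.33 (adjusted p = 0.991) and Socs3 reversed to −0.15 (adjusted p = 0.997). Of 77 ribosomal protein genes tested 31 were called, all higher, among them Rplp1, Rpl10a and Rps20, and the median log2 fold change of the 77 was 0.34 against 0.01 over all genes. The number called was 3 with no filter, 5 without ERG CKO replicate 2, 10 without WT replicate 1, 4 of 75 with each cell thinned and 0 with Cd27 read from thinned counts, where the median was 0.13.

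Of 11 granule genes tested 3 were called lower in cells with Cd27 (Gzmb, Prf1 and Serpinb9b), and none higher. Gzmb was at 1336, 712, 1416 and 666 CPM against 1718, 2438, 2209 and 1620.0 (log2 fold change −0.96, SE 0.15, adjusted p = 0.000143), and Prf1 at 206, 229.6, 269 and 222 against 434, 473, 487 and 444 (log2 fold change −0.97, SE 0.18, adjusted p = 0.000928). Gzma had a log2 fold change of −0.82, given as a description because the rule used it, and of −0.57 with Cd27 read from thinned counts (edgeR adjusted p = 0.104). The chemokines Ccl3 (log2 fold change −1.48), Ccl4 (−1.32) and Ccl5 (−0.65) were lower as well. Of 6 mature NK genes tested 3 were called lower: Klrg1 (−1.40), Zeb2 (−1.23) and Itgam, which encodes CD11b (−1.04). Of the other 3, Itgax was at 0.73 (adjusted p = 0.12), Cma1 at −0.65 (0.057) and S1pr5 at −0.51 (0.513). The factors Irf8 (−0.76), Klf2 (−0.69) and Id2 (−0.54) and the kinase Sgk1 (−1.72) were lower too. With Cd27 read from thinned counts Gzmb (−1.32), Ccl4 (−1.48), Ccl5 (−0.69) and Irf8 (−1.09) were called lower. Under that division Prf1 (−0.55, adjusted p = 0.905), Klrg1 (−0.94, 0.844), Zeb2 (−1.23, 0.482), Ccl3 (−0.77, 0.991) and Sgk1 (−1.15, 0.831) were not called. With each cell thinned, Prf1 (−0.64, edgeR adjusted p = 0.267) and Ccl3 (−0.96, 0.0786) were not called either, whereas Gzmb, Ccl4, Ccl5 and Irf8 were.

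**Figure D4:**
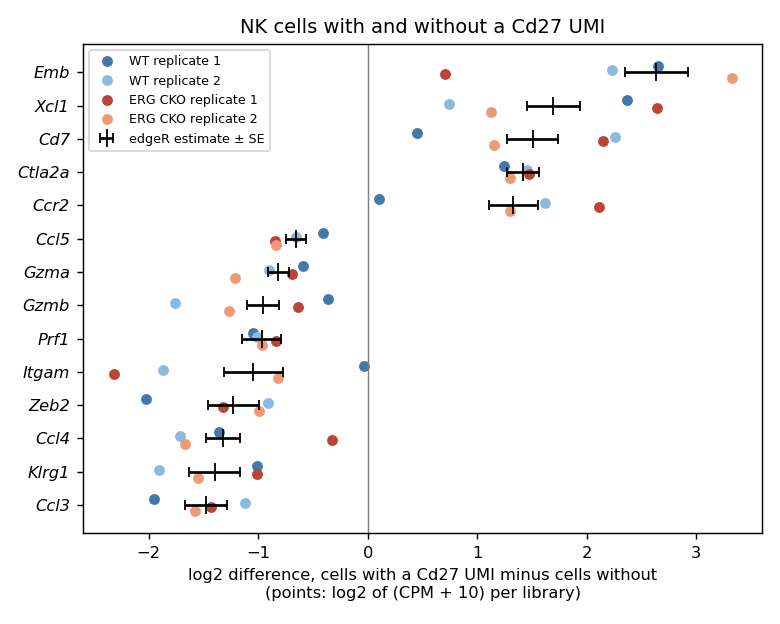
Log2 difference of 14 genes between NK cells with and without a Cd27 UMI: points, 1 per library, from CPM after adding 10; black marks, edgeR estimate with its SE. Emb, Xcl1, Cd7, Ctla2a and Ccr2 lay right of 0 and the other 9 genes left of 0 in all 4 libraries.

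A small group of NK cells carried Il7r. The 11 cells with an Il7r UMI had Ltb at 424 CPM against 20.4 CPM in the other 331, Cd7 at 1303 against 183 and Gzma at 5349 against 14308. Of the 11, none held Klra4, 3 held Eomes and 9 held Tbx21, against 51.4%, 53.2% and 49.5% of the other 331. Gzma and Klra4 are genes of the rule, which 6 of the 11 cells passed with exactly 3 NK genes, so their values here depend on the selection. The markers Cxcr6 and Tmem176b, which type 1 innate lymphoid cells also express, had a UMI in 3 and 4 of the 11 cells and in 0.906% and 2.72% of the others. Itga1, another marker of type 1 innate lymphoid cells, had a UMI in 1 of the 11 and in 1.21% of the others. Further markers of that type were not compared between these sets. With 8 of the 11 Il7r cells in the libraries labelled ERG CKO and 3 in WT, the Il7r value above rested on them. They were found by a readout, and no test was made on them.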

How the data were processed

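Single-cell suspensions of whole lung were sequenced with the 10x platform from 2 WT and 2 ERG CKO mice. The counts deposited by the authors are whole-number UMI counts per gene and cell, made with Cell Ranger 3.1.0 on mm10 per the labels, with no normalization. The counting annotation and strand, and the limits of the study's filter on cells, are not given in the sources used here. All 9363 cells were kept. The paper reports fewer cells after its quality filtering, so shares of all cells here rest on a larger set than the study's. Rows of 13 repeated gene symbols (among them Itgam) were summed, which left 20063 symbols, and no column of another sample was present.

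The members and gene lists were chosen with earlier results of these data known. Cells were selected by the rule, counts were summed per library, and edgeR 4.0.16 (R 4.3.3) was run with TMM and filterByExpr, the 12 genes of the rule left out of the comparison of genotypes and of the one with T cells, and tested on simulated data. Genes with an adjusted p of 0.05 or less were called. DESeq2 1.42.0 was an alternative. The comparison within libraries had the library as a term. Named genes were the rule's genes, the 10 lowest adjusted p per direction among called genes (the 5 lowest p where fewer were called, as values), and the most abundant of each list; some genes that this rule names are not reported here. Scrublet in scanpy 1.11.5 called 65 doublets (0.694% of cells), none of them NK cells. Other settings tried were the size factors, the filter, the replicate block, each library left out, and stricter or looser selection. Replicates of a group differed by more than sampling noise (chi-square per degree of freedom 1.76 and 1.84).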

Additional observations from a re-analysis of the deposited data

Results flagged for a closer look

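For 3 genes the difference between the libraries labelled ERG CKO and WT was not the same in NK cells as in T cells by the interaction test in edgeR. Ly6c2 had an interaction of 1.65 on the log2 scale, Il7r of 3.82 and Slc25a4 of −2.22. Ly6c2 was above both WT libraries in both ERG CKO libraries of NK cells, and in T cells both lay below both. The share of all genes that separate in this way was not counted. The Il7r value came from 11 NK cells, and the Slc25a4 value from 34, 28, 5 and 9 UMIs per library in NK cells. With groups of 2 libraries, no library could be tested as standing apart.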

How the results depend on the processing

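The count of genes called between genotypes in NK cells (0 of 5012) became 18 with no filter on low counts, 5 with cells over 10% mitochondrial UMIs left out and 13 to 22 with 1 library left out. It was 0 with DESeq2, RLE size factors, at least 4 or 2 NK genes, no Cd3 UMI, cells of at least 1000 UMIs, doublets left out and each gene's highest cell dropped. With the replicate block it was 13. The counts with 1 library left out include Xist, Ddx3y or Eif2s3y, since the groups then differ in libraries with Xist. Same-numbered libraries had a correlation of deviations of 0.149 with 2 pairs, so by the labels they share only a number, and Xist and Ddx3y divide the libraries the same way. Listed genes called went from 0 to 6, 9 and 4 with no filter, the replicate block and the mitochondrial limit, and to 6 to 8 with 1 library left out. Without a library in the model the Cd27 count fell from 80 to 50, with each cell thinned to 16 and with the division on thinned counts to 9; with 1 library left out it was 24 (ERG CKO replicate 2) to 76. The direction held for every one of the 80 that was tested with DESeq2, no filter, no library term or 1 library left out (77 were tested without ERG CKO replicate 2). It held for 58 of 59 after thinning and 74 of 78 with the thinned division, where Socs3 reversed to −0.15. The count against T cells went from 3 to 20 with no filter and to 1 to 35 with 1 library left out. In that comparison Hbb-bs reversed to −0.32 without WT replicate 2 (range to 5.38) and to −1.39 against CD8 T cells alone, and Ifitm1 to 0.26 without WT replicate 1 (range from −12.22). The difference in NK share reversed to −0.67 and −1.38 points without replicate 2 of WT and of ERG CKO, with a range up to 2.30. The cause of these changes was not tested. At 54 to 110 NK cells per library, genes under about 10 CPM rest on a few UMIs.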
